A study of Mus musculus with 8 samples.

Results

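The kinesin family genes of cultured mouse kidney tubuloids were selected by symbol, as every gene named Kif followed only by numerals or the letters a to c. This gave 41 genes of the 24063 in the count tables. The family was taken up with earlier GDNF-control results of these cultures in view, so the GDNF-control values below describe its members, and their p-values come from a fit to every gene and were not corrected for that choice. By the roles known for each protein, 14 were grouped as mitotic, 14 as transport and 9 as ciliary kinesins, and 4 (Kif12, Kif26a, Kif26b and Kif2a) were left unclassed.

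Tubuloids are tubule-like structures that grow from fragments of primary kidney tubules in Matrigel. By the labels, all 8 cultures came from postnatal day 7-10 kidney (the study's text gives a different range of days) of the genotype Pkd2fl/fl Pax8rtTA TetOCre mTmG, in which the Pax8 promoter drives the doxycycline-dependent activator of Cre. They grew for 7 days in medium with growth factors, and the sources used here describe no doxycycline for them. The 4 GDNF cultures (6, 12, 17 and 22) received GDNF, the glial-derived neurotrophic factor that guides branching of the ureteric bud, as a 24 h pulse, and the 4 control cultures (3, 7, 14 and 21) did not. The labels do not state that each culture came from its own animal, so p-values measure the spread between cultures, which may be technical in part.

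Kinesins are motor proteins that use ATP to walk along microtubules, or in some cases to take microtubules apart. Mitotic kinesins build the spindle, move chromosomes and finish cell division, and their mRNA peaks late in the cell cycle. Transport kinesins carry vesicles, organelles and protein complexes through the cytoplasm. Ciliary kinesins carry cargo into the cilium, set its length or take part in its movement and signalling. By the study's account, polycystic kidney disease proteins have been located to cilia, among other sites of the cell, and what they do remains undefined.

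The promoters of these classes are shown first because some of them carry letters known from 2 different programmes of transcription. RefSeq promoter windows of 300 bases (250 before and 50 after the annotated start site, GRCm38.p6) were matched by symbol for 33 of the 41 kinesins. Next, 3 motifs were searched on both strands, and they were picked after the windows had been seen. The first was TTTGAA, the core of the cell cycle genes homology region (CHR) found at many genes expressed in mitosis. The second was CCAAT, the box bound by the factor NF-Y. The third was GTTGCCATG, the first letters of a strong form of the X-box, which RFX factors bind at ciliary genes. No match of one motif overlapped a match of another in the kinesin windows.

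The CHR letters stood in 11 of the 13 mitotic kinesin promoters with a window, in 1 of 8 transport (Kif1a), in 1 of 8 ciliary (Kif27) and in 1 of 4 unclassed promoters (Kif26b). Over all 32851 promoter windows, 17.9% held them. Here and below, a kinesin was counted once if any of its windows held the letters, while the percentages of all windows count every window. CCAAT stood in 9 of 13 mitotic, 1 of 8 transport, 5 of 8 ciliary and 1 of 4 unclassed promoters, against 37.4% of all windows. The X-box letters stood in 2 of 8 ciliary promoters (Kif9 and Kif24) and in no other kinesin promoter, against 0.773% of all windows. These letters were picked after the windows had been seen, so their place in this class alone cannot be told apart from that choice. The mitotic Kif23 window below holds GTTGCCAAG, which differs from them in 1 letter. In the sequences, written 5′ to 3′ on the strand of the gene, capitals mark the CHR letters of Kif23 and Kif11 (as TTCAAA where they lie on the other strand) and the X-box letters of Kif9 and Kif24. Kif23 encodes the motor of centralspindlin at the midbody and lies on the minus strand, with its window at chr9:61946750-61947049. Kif11 encodes the motor that pushes spindle poles apart and lies on the plus strand, with its window at chr19:37376132-37376431. Kif9, of motile cilia, lies on the plus strand (chr9:110476708-110477007), and Kif24, which acts on microtubules of the centriole, on the minus strand (chr4:41464799-41465098). These matches are descriptions of letters and not evidence that a factor binds.
Kif23: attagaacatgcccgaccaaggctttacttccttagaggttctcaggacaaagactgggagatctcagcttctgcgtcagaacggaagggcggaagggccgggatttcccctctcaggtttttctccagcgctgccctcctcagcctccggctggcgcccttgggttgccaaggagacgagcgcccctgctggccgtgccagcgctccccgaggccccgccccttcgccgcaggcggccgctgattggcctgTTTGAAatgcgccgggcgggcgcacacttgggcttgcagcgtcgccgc
Kif11: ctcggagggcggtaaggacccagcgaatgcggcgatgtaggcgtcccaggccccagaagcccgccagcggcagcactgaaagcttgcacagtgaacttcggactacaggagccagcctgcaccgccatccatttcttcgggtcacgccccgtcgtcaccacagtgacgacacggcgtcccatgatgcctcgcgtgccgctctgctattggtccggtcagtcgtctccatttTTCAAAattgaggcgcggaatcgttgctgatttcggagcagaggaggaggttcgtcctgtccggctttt
Kif9: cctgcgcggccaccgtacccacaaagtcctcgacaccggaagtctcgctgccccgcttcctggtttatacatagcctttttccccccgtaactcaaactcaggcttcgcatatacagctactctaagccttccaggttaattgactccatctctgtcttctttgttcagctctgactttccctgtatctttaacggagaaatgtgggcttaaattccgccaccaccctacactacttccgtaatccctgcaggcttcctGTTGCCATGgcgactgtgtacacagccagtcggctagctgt
Kif24: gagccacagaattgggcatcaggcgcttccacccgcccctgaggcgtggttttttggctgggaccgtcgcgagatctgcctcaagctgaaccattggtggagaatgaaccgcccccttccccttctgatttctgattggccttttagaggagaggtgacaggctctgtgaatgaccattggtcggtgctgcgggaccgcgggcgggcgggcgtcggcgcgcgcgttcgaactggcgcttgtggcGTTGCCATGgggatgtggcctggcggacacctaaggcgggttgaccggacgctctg

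Each culture's table held 72991721 to 97490625 counts, summed over transcripts. Of all counts, the kinesins took 0.0701 to 0.119% in the control cultures and 0.125 to 0.132% in the GDNF cultures, with no overlap. Scaling by the trimmed mean of M-values (TMM), which sets most genes level between cultures, and expressing counts as CPM, a rate on the total of each culture, gave 887 to 1211 CPM in controls and 1165 to 1207 CPM in GDNF cultures, and these ranges overlap. The TMM factor was 0.790 for control culture 3, 0.963 to 0.982 for the other controls and 1.07 to 1.11 for the GDNF cultures. The groups did not overlap in this factor, so the scaling itself differed by group. Counts also shifted toward long transcripts in the GDNF cultures: transcripts of the top length quartile took 14.4 to 22.1% of counts in controls and 23.0 to 28.1% in GDNF cultures. Kinesin transcripts are long, with a median of 4823 bases against 2674 for all genes tested, and 35 of the 39 tested kinesins were longer than that second value. Differences are therefore also given with a length offset, a trend of counts on transcript length removed per culture. The part of transcript length in the kinesin differences was not tested beyond this offset. Summed levels of 10 epithelial markers ranged from 264 to 1997 in controls and from 499 to 853 in GDNF cultures, and those of 10 stromal markers from 326 to 1252 and from 252 to 842. These levels are CPM per kilobase, and the groups overlapped for both lists. Neural markers summed to 6.56 to 11.6 in controls and 4.61 to 8.89 in GDNF cultures, and immune markers to 3.203 to 8.02 and 2.27 to 20.8, the highest in GDNF culture 17. Of the 10 neural and 6 immune markers in the tables, 9 and 5 passed the filter on low counts, and 1 of each list (Sox10 and Cd3e) was at or under a floor of 3 counts. In these bulk samples fewer cells of a type and less RNA per cell cannot be told apart, and the part of the cell mixture in the results was not tested.

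Levels of different kinesins were compared per length, as the CPM of the most counted transcript per kilobase. Kif5b, the widely expressed heavy chain of conventional kinesin, had the highest mean level in controls (23.2 ± 4.12, SD, n = 4). Kif12, a kidney kinesin that has been linked to the severity of polycystic disease in mice, followed (17.4 ± 7.11). Next came Kif20a (13.6 ± 3.48), Kif22 (13.1 ± 2.88) and Kif23 (10.1 ± 5.58), all of the mitotic class. The ranges of neighbours among these 5 overlapped, so their order is not fixed beyond the spread between cultures. Below them stood Kif2c (6.18 ± 2.04) and Kif3a (5.61 ± 0.798), the motor subunit of kinesin-2 that drives transport into the cilium. At the other end, Kif2b had no count in any culture and Kif19a 0 to 47 counts, and neither passed the filter on low counts. Kif26a, Kif27 and Kif5a were also near the lower end, with mean levels of 0.0565, 0.108 and 0.119 over the 8 cultures.

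**Figure D1:**
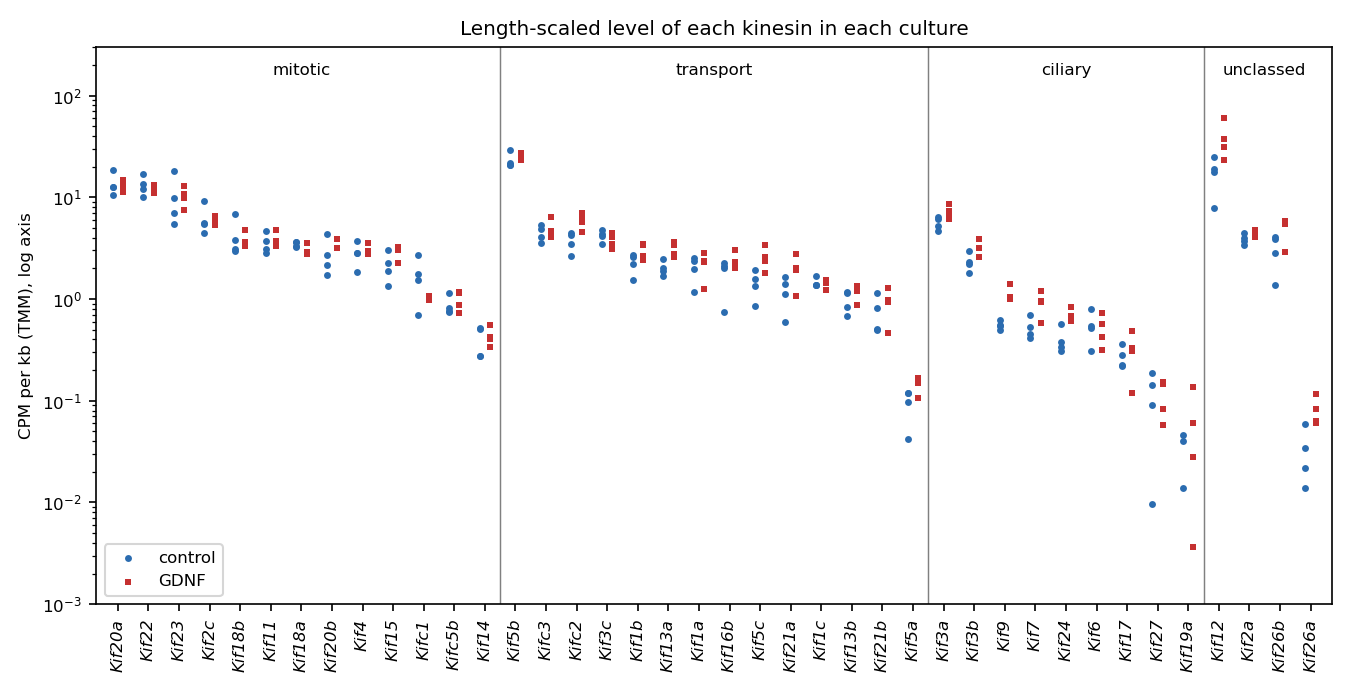
Length-scaled level (CPM per kilobase after TMM, log axis) of the kinesins with counts, by class; each blue circle is a control culture and each red square a GDNF culture, and a culture with no count is not drawn. Kif5b and Kif12 lie highest and Kif19a and Kif26a lowest, and levels differ widely within each class.

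Differences between GDNF and control were then taken across all genes with the quasi-likelihood test of edgeR, adjusted by Benjamini-Hochberg. The low-count filter left 16557 genes and 39 kinesins. At an adjusted p of 0.05 or less 0 genes were called (0.0%), the smallest adjusted p being 0.167, so no kinesin passed. At an unadjusted p of 0.05 or less, 9 kinesins were higher and 0 lower in GDNF cultures, where 9.25% of all genes were higher and 12.9% lower. The 9 were Kif9, Kif7, Kif24 and Kif3b of the ciliary class, Kif13a, Kifc2 and Kif5c of the transport class, and Kif12 and Kif26a, with Benjamini-Hochberg adjusted p from 0.167 to 0.204 in edgeR. With the length offset these counts were 4 higher and 2 lower, against 7.31% and 9.08% of all genes. The CPM of 5 kinesins were higher in GDNF with no overlap between the groups and those of 0 were lower, against 6.99% and 6.26% of all genes. DESeq2 called 4 kinesins higher and 0 lower at an adjusted p of 0.05 or less (Kif12, Kif13a, Kif5c and Kifc2), against 1.27% and 6.86% of all genes. DESeq2 gave no adjusted p for many kinesins of lower count, among them Kif9 (unadjusted DESeq2 p of 4.69e-07), Kif7, Kif24, Kif26a and Kif15, so these could not be called. In the ciliary class only Kif3a and Kif3b received one. The DESeq2 percentages of all genes count genes without an adjusted p as not called.

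The 3 classes differed in their medians. Of 13 mitotic kinesins tested, 7 were higher and 6 lower in GDNF, with a median log2 fold change of 0.03. Of 14 transport kinesins, 12 were higher and 2 lower, with a median of 0.35. Of 8 ciliary kinesins, 7 were higher and 1 lower, with a median of 0.44. All 4 unclassed kinesins were higher, with a median of 0.90. Over all genes tested the median was 0.03 and 52.5% were higher. The length offset brought the medians to -0.07 for mitotic, 0.09 for transport, 0.19 for ciliary and 0.69 for unclassed kinesins, against 0.01 for all genes. The median transcript was longest in the transport class (6604 bases) and shortest in the mitotic class (3425 bases). No test between classes was made, and the differences are a description.

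**Figure D2:**
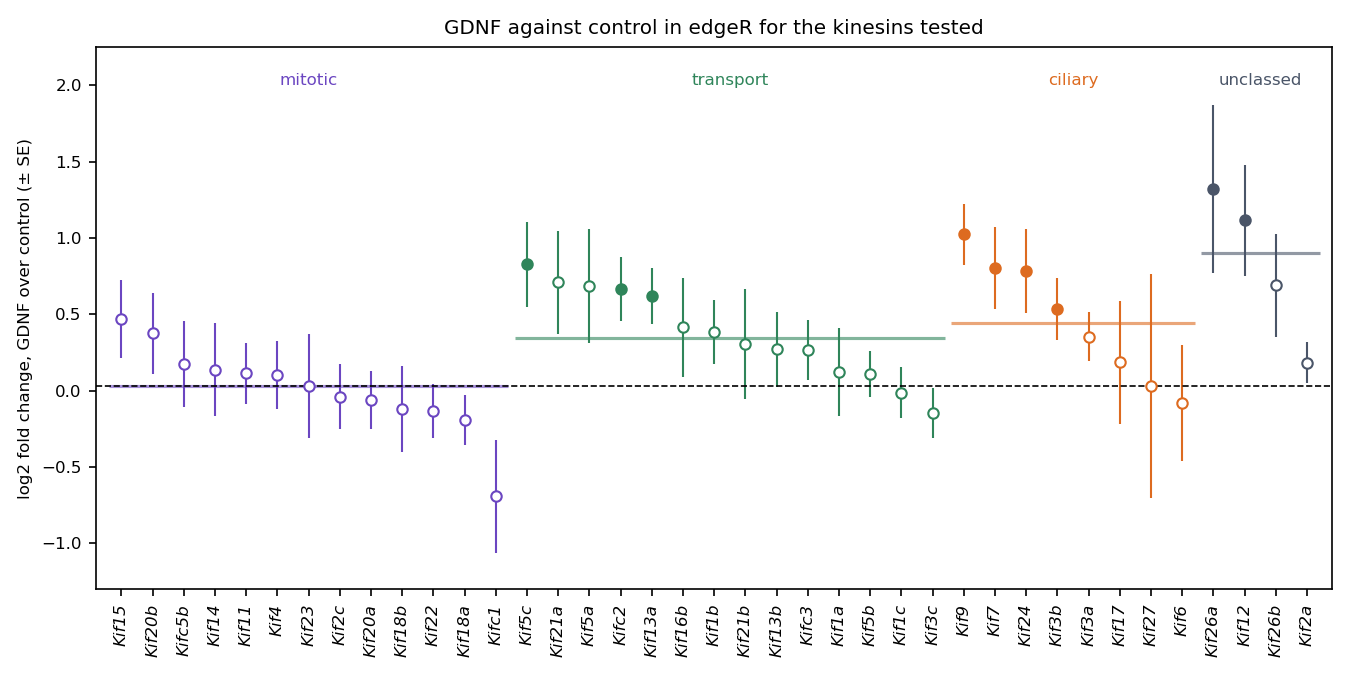
The log2 fold change (GDNF over control, y axis) of each of the 39 kinesins tested, with its standard error as the bar; filled points have an unadjusted edgeR p of 0.05 or less. Coloured lines are class medians (0.03 mitotic, 0.35 transport, 0.44 ciliary, 0.90 unclassed) and the dashed line is the median of all genes, 0.03.

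In the ciliary class, Kif9, a kinesin of motile cilia, showed the clearest separation. Its level in control cultures 3, 7, 14 and 21 was 3.46, 3.70, 3.41 and 3.01 CPM, and in GDNF cultures 6, 12, 17 and 22 it was 6.27, 8.35, 6.50 and 6.50 CPM. Every GDNF culture lay above every control, and the lowest GDNF value stood well clear of the highest control. The log2 fold change was 1.02 ± 0.20 (SE), with an unadjusted p of 0.000463 and an adjusted p of 0.167 in the quasi-likelihood test of edgeR (Benjamini-Hochberg adjusted over all genes). The exact permutation test, two-sided, gave 0.0286, the smallest p that 4 against 4 cultures allow. Kif24, Kif13a, Kifc2 and Kif26a had the same permutation p. Any gene without overlap reaches it (6.99% of all genes higher and 6.26% lower in GDNF). The length offset left the change of Kif9 at 0.99, its transcript being short for a kinesin (3162 bases). The gene (chromosome 9, bases 110476738 to 110525174 in RefSeq GRCm38.p6) is 1 of the 2 kinesin genes whose promoter carries the X-box letters above. Any link of these letters to the GDNF difference was not tested.

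Kif24, which trims centriolar microtubules and holds back cilium formation, was the other kinesin with X-box letters. It stood at 1.72, 3.17, 1.87 and 2.13 CPM in control cultures 3, 7, 14 and 21 and at 3.46, 3.42, 3.81 and 4.62 CPM in GDNF cultures 6, 12, 17 and 22. The groups did not overlap, although control culture 7 came close to the GDNF range. Its log2 fold change was 0.78 ± 0.27 (edgeR's quasi-likelihood test, unadjusted p of 0.0170, Benjamini-Hochberg adjusted p of 0.169), and 0.53 with the length offset.

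Kif7, the regulator of Hedgehog signalling at the tip of the primary cilium, stood at 4.13, 4.83, 6.28 and 3.74 CPM in controls and at 5.26, 10.9, 8.56 and 8.40 CPM in GDNF cultures. The groups overlapped through control culture 14 and GDNF culture 6. Its log2 fold change was 0.80 ± 0.27, and 0.61 with the length offset. Kif3b, a motor subunit of kinesin-2, stood at 10.2, 12.6, 13.1 and 16.7 CPM in controls and at 14.7, 21.7, 21.8 and 18.0 CPM in GDNF cultures. Only control culture 21 reached into its GDNF range, and its log2 fold change was 0.54 ± 0.20, or 0.26 with the length offset. Kif3a, its partner in the motor, had a level per kilobase of 4.68, 6.14, 5.22 and 6.39 in controls and of 8.65, 6.65, 6.06 and 7.29 in GDNF cultures. Its groups overlapped, and its log2 fold change was 0.35 ± 0.16, with an unadjusted p of 0.0529 in edgeR, or 0.12 with the offset.

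The other ciliary kinesins did not share this pattern. Kif17, a kinesin-2 of sensory cilia, had a log2 fold change of 0.18 ± 0.40 (0.08 with the offset). Kif27, a relative of Kif7 needed in motile cilia, had 0.03 ± 0.73 (-0.12 with the offset) on 4 to 70 counts per culture. Kif6, of motile cilia like Kif9, was the only member of the class with a value below 0, at -0.08 ± 0.38 (-0.15 with the offset, where Kif27 was also below 0). The standard errors of Kif17 and Kif27 allow differences as large as those of Kif7 or Kif24.

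In the transport class, Kif13a, a motor of endosomal cargo, stood at 12.9, 17.02, 11.5 and 13.9 CPM in controls and at 23.5, 24.7, 17.9 and 18.9 CPM in GDNF cultures. The groups did not overlap, but control culture 7 was close to GDNF culture 17. Its log2 fold change was 0.62 ± 0.18 and fell to 0.29 with the length offset. Kifc2, a motor directed to the minus end, stood at 8.38, 14.01, 13.3 and 11.02 CPM in controls and at 18.1, 22.1, 14.3 and 19.6 CPM in GDNF cultures. These groups were separate by a narrow gap, between control culture 7 and GDNF culture 17. Its log2 fold change of 0.66 ± 0.21 was little altered by the offset (0.63), its transcript being the shortest of the class (3143 bases).

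Kif5c, a heavy chain of conventional kinesin best known from neurons, stood at 9.22, 13.3, 5.77 and 10.7 CPM in controls and at 23.0, 16.1, 12.4 and 17.6 CPM in GDNF cultures. Control culture 7 lay above GDNF culture 17, and the log2 fold change was 0.83 ± 0.28, or 0.51 with the offset. The more abundant heavy chain Kif5b had a level per kilobase of 20.5, 20.9, 21.96 and 29.3 in controls and of 23.0, 24.1, 25.9 and 27.1 in GDNF cultures. Its highest value was that of control culture 21, and its log2 fold change was 0.11 ± 0.15, turning to -0.19 with the offset. Kif5a, the third heavy chain, had 0.69 ± 0.37 (0.42 with the offset) at a far lower level. Kifc3, a minus-end motor of epithelial cells, had a level per kilobase of 3.59, 4.93, 5.35 and 4.04 in controls and of 4.04, 6.45, 6.35 and 4.63 in GDNF cultures, which overlap, with a log2 fold change of 0.27 ± 0.20 (0.20 with the offset).

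With the length offset 2 transport kinesins were lower at an unadjusted p of 0.05 or less. Kif3c, a kinesin-2 subunit found with Kif3a, had a log2 fold change of -0.15 ± 0.16 without the offset and -0.53 ± 0.19 with it (unadjusted p of 0.0198 in edgeR). Kif1c, a vesicle motor, had -0.01 ± 0.17 and -0.37 ± 0.16 (unadjusted p of 0.0463 in edgeR). The remaining transport kinesins, Kif1a, Kif1b, Kif13b, Kif16b, Kif21a and Kif21b, had log2 fold changes from 0.12 to 0.71 without the offset, none with an unadjusted p of 0.05 or less. For Kif1a and Kif1b, motors of synaptic vesicle precursors and mitochondria, and for Kif21b the sign turned with the offset, as for Kif5b (to -0.35, -0.07 and -0.14). Kif13b, Kif16b and Kif21a had 0.03, 0.14 and 0.40 with it.

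**Figure D3:**
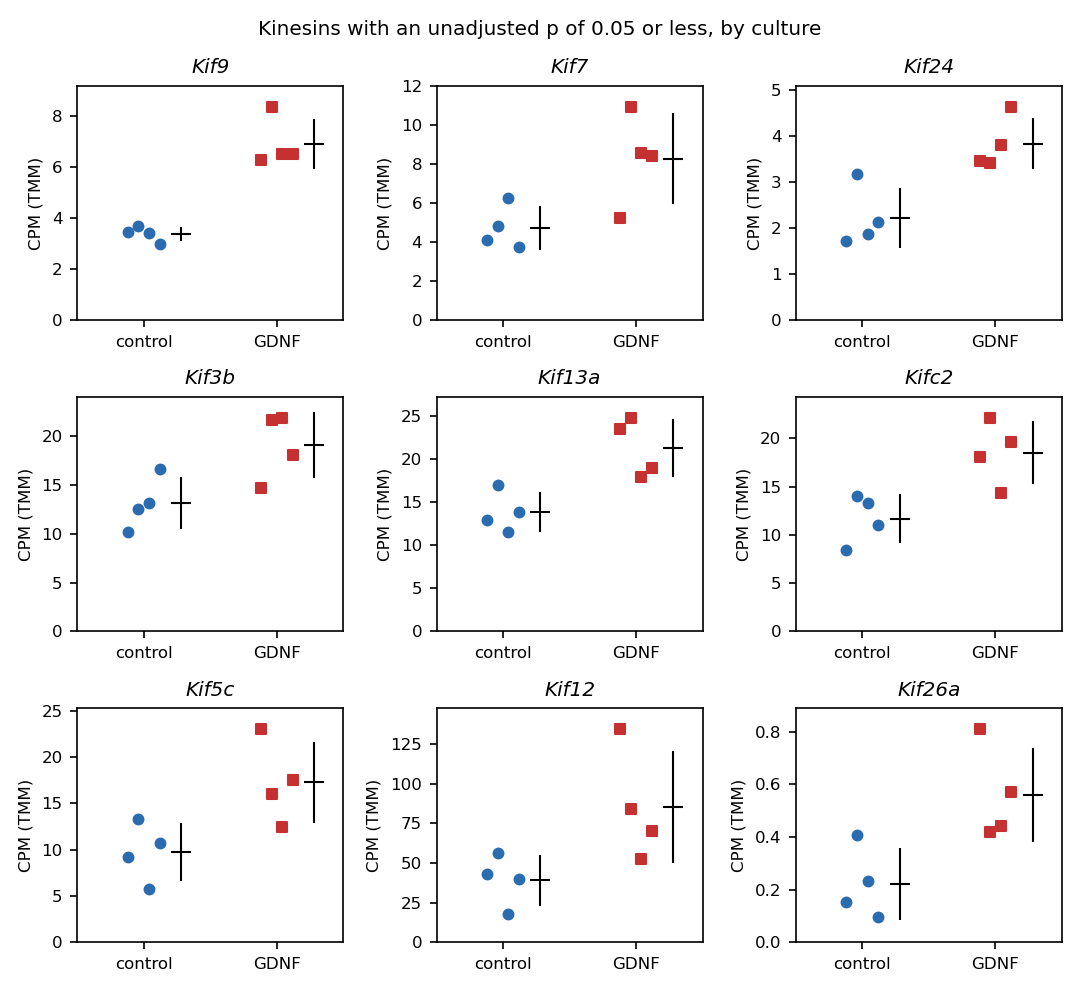
CPM after TMM (y axis, from 0) in each control culture (blue circles) and GDNF culture (red squares) for the 9 kinesins with an unadjusted edgeR p of 0.05 or less; black bars are the mean and SD of 4 cultures. The groups are separate for Kif9, Kif24, Kif13a, Kifc2 and Kif26a and overlap for Kif7, Kif3b, Kif5c and Kif12.

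Among the unclassed kinesins, Kif12 had the largest difference in CPM. It stood at 42.9, 56.4, 17.8 and 39.7 CPM in controls and at 134, 83.9, 52.3 and 69.9 CPM in GDNF cultures. Only control culture 7 reached into the GDNF range, and control culture 14 was far below the rest. The log2 fold change was 1.12 ± 0.36, with an unadjusted p of 0.0120 and an adjusted p of 0.167 in the quasi-likelihood test of edgeR (Benjamini-Hochberg adjusted over all genes). Its transcript is short (2250 bases), and the offset gave 1.17. In DESeq2 its adjusted p was 0.0310. Kif12 lies on chromosome 4, from base 63157948 to 63172145 in RefSeq GRCm38.p6.

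Kif26a, an atypical kinesin that restrains GDNF-Ret signalling in enteric neurons, was barely expressed, with 8 to 39 counts in controls and 42 to 75 in GDNF cultures. This amounted to 0.152, 0.407, 0.235 and 0.0952 CPM in controls and 0.809, 0.419, 0.441 and 0.570 CPM in GDNF cultures, separate by a very small gap between control culture 7 and GDNF culture 12. The log2 fold change was 1.32 ± 0.55, or 1.04 with the offset. Kif26b, its relative that acts in the mesenchyme of the developing kidney, had a level per kilobase of 1.36, 4.11, 3.87 and 2.85 in controls and of 2.92, 5.49, 5.45 and 5.81 in GDNF cultures. GDNF culture 6 lay within the control range, and the log2 fold change was 0.69 ± 0.34, or 0.35 with the offset. Kif2a, which takes microtubules apart, had a level per kilobase of 3.97, 3.73, 3.41 and 4.404 in controls and of 4.07, 4.27, 4.49 and 4.77 in GDNF cultures, with a log2 fold change of 0.18 ± 0.13 (0.04 with the offset).

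The most abundant mitotic kinesins varied more between control cultures than between groups. Kif20a, a motor of cytokinesis, had a level per kilobase of 12.6, 10.6, 12.5 and 18.6 in controls and of 14.7, 12.3, 14.01 and 11.2 in GDNF cultures. Kif22, which binds chromosomes, had 13.6, 10.0, 11.99 and 16.8 in controls and 13.1, 10.9, 12.7 and 11.1 in GDNF cultures. Kif23 had 9.89, 7.07, 5.45 and 18.0 in controls and 13.0, 7.45, 10.9 and 9.92 in GDNF cultures. In all 3 genes control culture 21 was the highest of the 8 cultures, and the GDNF values lay within the range of the controls.

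This held more widely: control culture 21 was the highest of all 8 cultures for 7 of the 13 mitotic kinesins tested and the highest control for 11. It was the highest of all 8 for 2 of 14 transport and 1 of 8 ciliary kinesins. It also had the highest summed level of 24 other mitotic genes (604 CPM per kilobase) and of the epithelial markers (1997). Control culture 3 came next in both sums (522 and 1868), although it was the lowest control for 6 of the 13 mitotic kinesins and the highest control for 2. The share of all genes highest in control culture 21 was not computed. The summed CPM of the mitotic class was 301, 264, 292 and 471 in control cultures 3, 7, 14 and 21, and 297 to 360 in GDNF cultures. The transport class summed to 399 to 507 CPM in controls and 482 to 570 in GDNF cultures, which overlap. The ciliary class summed to 101 to 135 CPM in controls and 142 to 175 in GDNF cultures, which do not, with most of the sum from Kif3a, whose 3 transcripts share their reads. Without control culture 21 the mitotic median was 0.22, and without control culture 3 the transport median was 0.20.

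**Figure D4:**
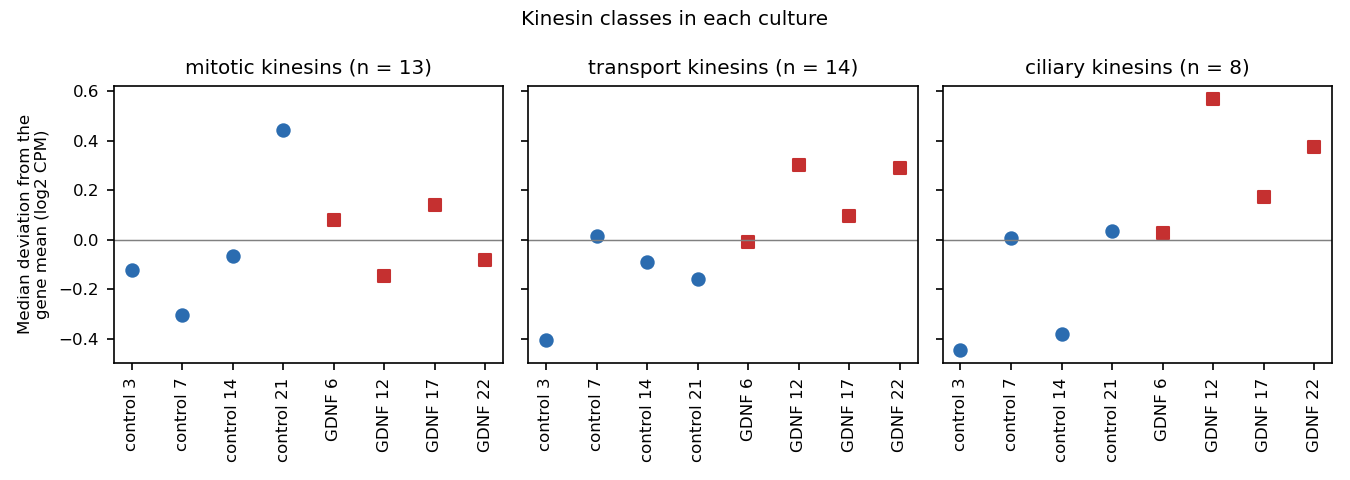
Median deviation (log2 CPM, y axis) of the members of each class from their own mean over the 8 cultures; blue circles are control and red squares GDNF cultures. Control culture 21 stands at 0.44 for mitotic kinesins, above every other culture, while for ciliary kinesins the GDNF cultures lie at 0.03 to 0.57 and the controls at -0.45 to 0.04, overlapping slightly.

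With all cultures in the fit, no single mitotic kinesin had an unadjusted p of 0.05 or less in edgeR. Kif15 and Kif20b, which act in spindle assembly and cytokinesis, had log2 fold changes of 0.47 ± 0.26 and 0.37 ± 0.27 (0.29 and 0.13 with the length offset). Without control culture 21 both Kif15 and Kif20b were higher at an unadjusted p of 0.05 or less in edgeR. Kif11 had 0.11 ± 0.20, Kif4, a chromosome-bound motor, 0.10 ± 0.22, and Kif14, of cytokinesis, 0.14 ± 0.30. The sign of all 3 turned with the offset (-0.08, -0.07 and -0.26). Kif2c, which depolymerizes microtubules at the centromere, had -0.04 ± 0.21, Kif18b, which acts on astral microtubules, -0.12 ± 0.28, and Kif18a, which aligns chromosomes, -0.19 ± 0.16, and with the offset these were -0.03, -0.14 and -0.24. The lowest value was that of Kifc1, a minus-end motor that clusters spindle poles, at -0.69 ± 0.37 (-0.60 with the offset), with 6.33, 1.598, 3.54 and 4.07 CPM in controls and 2.28 to 2.46 CPM in GDNF cultures. The controls lay on both sides of the GDNF cultures. Without control culture 7 Kifc1 was lower at an unadjusted p of 0.05 or less. Kifc1 and its near-identical relative Kifc5b (0.17 ± 0.28, and 0.19 with the offset) shared 30.6% and 29.9% of their 75-base stretches, so their counts are uncertain, and no other pair of kinesins shared any.

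Genes of related machinery gave a background for these values. Of 24 mitotic genes that are not kinesins, 4 were higher and 20 lower in GDNF, 1 and 8 of them at an unadjusted p of 0.05 or less (9.25% and 12.9% of all genes). Their median log2 fold change was -0.37, against 0.03 for the mitotic kinesins. With the offset 0 were higher and 6 lower at that p (7.31% and 9.08% of all genes), with a median of -0.31. Cdk1, the kinase that starts mitosis, stood at 80.3 to 130.3 CPM in controls and 56.9 to 74.7 in GDNF cultures, with no overlap (log2 fold change -0.70 ± 0.17, and -0.70 with the offset). Mad2l1, of the spindle checkpoint, and Cenpa, the centromeric histone, had -0.58 and -0.52, and with the offset -0.37 and -0.22, where Cenpa no longer had an unadjusted p of 0.05 or less. Mki67, the proliferation marker, was higher in GDNF (0.49 ± 0.20), but not with the length offset (0.06).

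For cilia, 24 genes of intraflagellar transport, the traffic in which Kif3a and Kif3b are motors, were 12 higher and 12 lower, 2 and 5 at an unadjusted p of 0.05 or less (9.25% and 12.9% of all genes), with a median of -0.01. With the offset 2 and 2 were at that p (7.31% and 9.08% of all genes), and the median was again -0.01. Among them Dync2h1, the motor of the return journey, had a log2 fold change of 0.63 (0.16 with the offset), Ift88 0.54 (0.52) and Ttc30a1 -1.07 (-1.08). Of 17 tested motile cilium genes (22 in the tables), 12 were higher and 5 lower, 3 and 0 at an unadjusted p of 0.05 or less (9.25% and 12.9% of all genes), with a median of 0.39. With the offset 1 and 0 were at that p (7.31% and 9.08% of all genes), with a median of 0.36. The smallest p-values were those of Ccdc39, Dnah9 and Ccdc40, at 0.52, 1.79 and 1.11 (0.45, 1.28 and 0.83 with the offset, where only Ccdc39 kept that p), and the last 2 were below 1 CPM in every culture. Foxj1, the master factor of motile cilia, stood at 0.502 to 3.12 CPM in controls and 0.619 to 1.76 in GDNF cultures, and these overlap (-0.82 ± 0.61), and Gmnc, of the same programme, was at or under 3 counts.

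For transport, 16 genes of cytoplasmic dynein and dynactin, which move cargo toward the minus end, were 6 higher and 10 lower, 2 and 6 at an unadjusted p of 0.05 or less (9.25% and 12.9% of all genes), with a median of -0.17. With the offset 0 and 4 were at that p (7.31% and 9.08% of all genes), with a median of -0.09. The small chains Dynlt3, Dynll1 and Dynlrb1 had log2 fold changes of -0.59, -0.54 and -0.59, and of -0.49, -0.41 and -0.17 with the offset, where Dynlrb1 no longer had that p. Of 8 kinesin light chains, adaptors and kinesins outside the symbol rule, 7 were higher and 1 lower, 0 at an unadjusted p of 0.05 or less, with a median of 0.17 (0.09 with the offset). The mitochondrial adaptors Trak2 and Trak1 had 0.45 and 0.41 (0.13 and 0.22 with the offset), and the light chain Klc2 0.30 (0.28).

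The length offset changed which kinesins stood out. Kif12, Kif7, Kif9 and Kifc2 kept an unadjusted p of 0.05 or less in edgeR, while Kif13a, Kif24, Kif26a, Kif3b and Kif5c did not, all of them between 5598 and 6918 bases long. Among all genes the count at that p was 1531 higher and 2134 lower without the offset, and 1211 and 1503 with it.

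**Figure D5:**
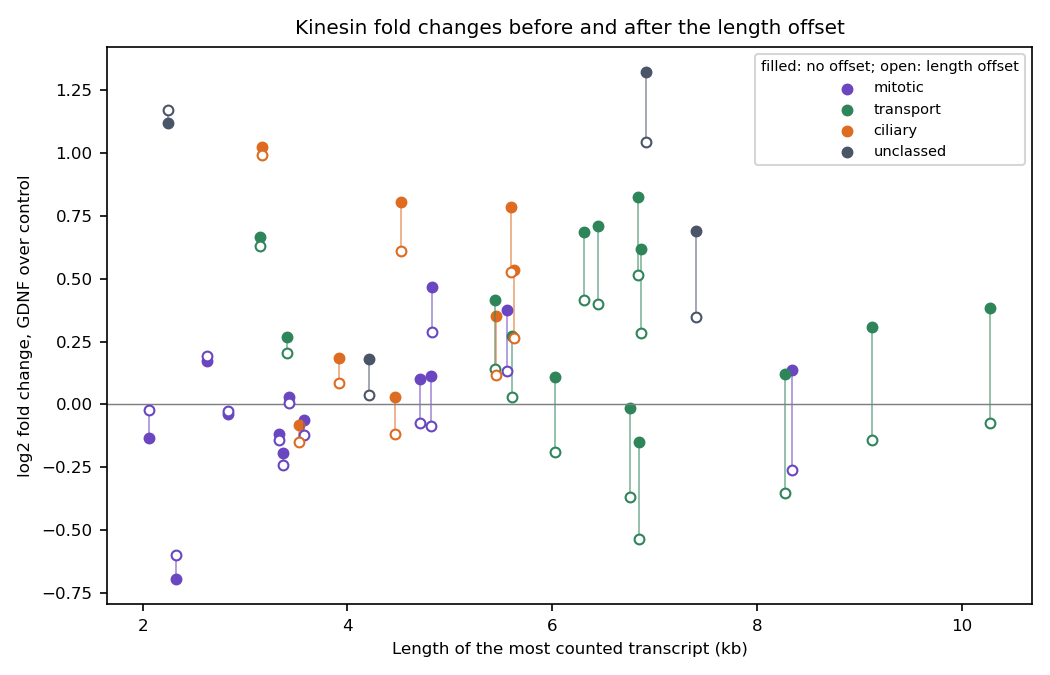
The log2 fold change (GDNF over control, y axis) of each of the 39 tested kinesins against the length of its most counted transcript (kb, x axis), without (filled) and with (open) the length offset, joined by a line and coloured by class. Long transcripts move down with the offset, while short ones such as Kif12 (2250 bases, 1.12 and 1.17) and Kif9 (3162 bases, 1.02 and 0.99) move little.

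The cultures were of 2 kinds, with Xist RNA (control 3 and 7, GDNF 6 and 12) or with Y-linked RNA (control 14 and 21, GDNF 17 and 22), 2 of each per group. Kif9 had a log2 fold change of 1.02 within each kind, and Kif12 of 1.13 in the Xist and 1.09 in the Y cultures. Kif24 had 0.47 in the Xist and 1.08 in the Y cultures. A test of the interaction gave 0 kinesins at an unadjusted p of 0.05 or less in edgeR. With 2 cultures per group and kind its standard errors were wide (log2 0.58 ± 0.58 for Kif24 and 0.48 ± 1.17 for Kif26a, Y minus Xist). It therefore cannot show whether the differences were alike in both kinds. Leaving out single cultures took the unadjusted p above 0.05 for Kif24 (to 0.0529 without GDNF culture 22 and also without control culture 21), for Kif7 (to 0.0503 without GDNF culture 12 and 0.0546 without control culture 21), for Kif3b (to 0.0702 without GDNF culture 12, 0.0692 without GDNF culture 17, 0.0562 without control culture 3 and 0.0527 without control culture 7) and for Kif26a (to 0.0653 or more without any of 5 cultures, GDNF 6 and 22 and control 3, 14 and 21), in edgeR's fits. Kif9, Kif12, Kif13a, Kifc2 and Kif5c kept it without any 1 culture.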

How the data were processed

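RNA-Seq of 8 tubuloid cultures, 4 GDNF and 4 control by their titles and treatment labels, was used. The authors made SMART-Seq v4 libraries with poly-A selection and sequenced 75 bp paired-end reads over 2 flow cell lanes (4 samples in each, not given per culture). Their processing notes name STAR, featureCounts, mm10 and DESeq2. The deposited counts are raw read counts for each RefSeq transcript, in which a read fitting several transcripts of a gene appears under each. Of the 12 kinesins with several transcripts, 11 had a second transcript at 90% or more of the first one's counts. Whether counting used strand is not given in the sources used here. The deposited FPKM were used to obtain transcript lengths, and the deposited TPM as another measure of level.

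Counts were summed per symbol and tested in edgeR 4.0.16 (R 4.3.3) with TMM, filterByExpr and the quasi-likelihood F-test, Benjamini-Hochberg adjusted over all genes, and single kinesins also by an exact permutation test, two-sided, on log2(CPM + 0.1), over all 70 assignments. The authors' methods name DESeq2, run here (1.42.0) as an alternative beside limma-voom (limma 3.58.1), other scalings and filters, a spline of counts on length (5 degrees of freedom) as the length offset, and leaving out each culture. Scripts were tested on simulated data. Shared 75-base stretches were counted in GENCODE M21 transcripts. Permutation tests ran in NumPy 2.4.6 and figures in matplotlib 3.10.9 (Python 3.11.15, with pandas 2.3.3).

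The members, classes and lists were chosen with earlier results of these data known. Values in every culture are given for kinesins with an unadjusted p of 0.05 or less or no overlap in CPM and for the 3 of highest level in each class. From each related list the 3 genes of smallest p are named, with Mki67 and Foxj1 as references. Totals of 72991721 to 97490625 counts put counting error well below the spread between cultures for most kinesins, the common coefficient of variation being 36.8%, but not for Kif26a, Kif27 or Kif19a.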

Additional observations from a re-analysis of the deposited data

Results flagged for a closer look

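Of 78 sets of 4 values (39 kinesins in 2 groups), 6 had 1 culture whose gap to the nearest of the others as a share of the range exceeded Dixon's 95% critical value, and chance gives about 3.9. Control culture 21 was the high one 3 times: Kif5b at 177 CPM (the other controls 124 to 132), Kif1c at 11.4 CPM (9.24 to 9.34) and Kifc5b at 3.04 CPM (1.95 to 2.13). Control culture 14 was low for Kif16b, a motor of early endosomes, at 4.03 CPM (11.1 to 12.4). GDNF culture 6 was low for Kif26b at 21.6 CPM (40.3 to 43.0), and GDNF culture 12 was high for Kif9 at 8.35 CPM (6.27 to 6.50). For Kif9 the other GDNF cultures also lay above every control, and its log2 fold change over all 20 alternatives ran from 0.92 to 1.24.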

How the results depend on the processing

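No paired analysis was possible because the groups share no culture numbers. Against 9 kinesins higher and 0 lower at an unadjusted p of 0.05 or less, library size alone gave 14 higher (3299 of 16557 genes, against 1531), with a transport median of 0.54 where the median of all genes moved from 0.03 to 0.25, and the length offset gave 4 higher, 2 lower (Kif1c and Kif3c) and a transport median of 0.0856. Within the cultures with Xist RNA 3 were higher (258 of 16700 genes) and within those with Y-linked RNA 4 (713 of 16675), with 2 against 2 cultures each, an alternative chosen after seeing the data. At an adjusted p of 0.05 or less edgeR called 0 kinesins and DESeq2 4, and at 0.1 DESeq2 called 5 kinesins (Kif3b added) of 2359 genes, thresholds also compared after seeing the data. Leaving out single cultures gave 7 to 10 kinesins higher and 0 to 1 lower (Kifc1, without control culture 7) at an unadjusted p of 0.05 or less in edgeR. Among all genes these fits gave 871 to 1713 higher and 1321 to 2577 lower, of 16734 to 16809 tested. They gave 0 kinesins at an adjusted p of 0.05 or less, with medians of -0.11 to 0.22 for mitotic, 0.20 to 0.48 for transport and 0.43 to 0.64 for ciliary kinesins. Without control culture 21, 1421 genes and 1 kinesin (Kif9) had an adjusted p of 0.1 or less in edgeR, against 0 with all cultures. None of the 9 kinesins changed sign under any of the 20 alternatives in which it was tested. The 9 were picked by their p in the main fit and the alternatives reuse the same cultures, so these are not independent tests. Kif9 and Kif12 kept an unadjusted p of 0.05 or less in all 20 and Kifc2 in 19, while Kif26a lost it in 9 of 19. The causes were not tested. The 5 kinesins with the highest level were the same 5 by the deposited TPM. Low counts limit Kif26a, Kif27 and Kif19a.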
